A study of Mus musculus with 5 samples.

Results

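The GIMAP genes encode small GTP-binding proteins known as GTPases of immunity-associated proteins. The members described here are the 8 mouse genes of that name, Gimap1, Gimap3, Gimap4, Gimap5, Gimap6, Gimap7, Gimap8 and Gimap9, found by their symbols among the 32285 genes counted in lung cells of mouse embryos. All 8 were in the files, which hold 9 Gimap symbols in all. The remaining symbol, Gimap1os, is an antisense transcript that overlaps Gimap1 on the other strand and was not counted as a member. The family was put forward with its levels per cell class and its Het and KO values in these same libraries already known, so those values are given as a description and support nothing.

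GIMAP proteins share an AIG1-type GTP-binding domain, and several are anchored in intracellular membranes, where they can pair with one another. They are best known from lymphocytes: GIMAP5 and GIMAP1 are needed for the survival of mature lymphocytes, GIMAP4 has been linked to the speed at which T cells die, and GIMAP6 binds the autophagy protein GABARAPL2. Blood vessel endothelium is the other tissue known to express much of the family, and the lung is rich in both kinds of cell.

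Single-cell RNA-seq libraries were made from dissociated whole lungs of E18.5 mouse embryos with the 10x Chromium 3′ chemistry, 1 library per embryo. There were 2 Zswim8+/- embryos, called Het below, and 3 Zswim8-/- embryos, called KO. ZSWIM8 is the substrate receptor of a ubiquitin ligase that directs the decay of certain microRNAs, and the comparison asks which RNAs differ in the lung without it. No wild-type library was analysed here, so both groups carry at least 1 mutant allele, and the labels do not say which exons that allele lacks.

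The libraries held 56608582 to 93708304 UMIs (unique molecular identifiers, each a counted RNA molecule), and 3051 to 4634 cells per library were kept, with a median of 9722 to 12708 UMIs per cell. Zswim8 mRNA stood at 36.3 and 38.8 CPM (UMIs per 1000000 UMIs) in the Het libraries and at 38.3, 39.1 and 41.2 CPM in the KO libraries, so the mRNA level does not check the genotype labels and every Het or KO direction below rests on the labels alone. By Y-linked genes and Xist, Het1, Het2 and KO3 came from male embryos and KO1 and KO2 from female ones, which makes sex partly confounded with genotype. Pairs of libraries shared 17 to 44 cell barcodes, at most 0.325% of a library's barcodes. With 1 library per embryo, the spread between libraries holds both embryo and library preparation.

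The 8 genes lie side by side on chromosome 6 (GRCm38, GENCODE M21), between positions 48647234 and 48770851, a span of 123.6 kb. In order they are Gimap8 (48647234 to 48660875), Gimap9 (48676129 to 48679114), Gimap4 (48684549 to 48692060), Gimap6 (48701582 to 48708225), Gimap7 (48718621 to 48724636), Gimap1 (48739054 to 48743795), Gimap5 (48746197 to 48754210) and Gimap3 (48764464 to 48770851). Gimap6 and Gimap3 are read from the minus strand and the other members from the plus strand. A gene model that reads through the cluster, Gm28053, overlaps Gimap7, Gimap1 and Gimap5 on their own strand. It is not among the genes counted, and reads it might share with these members cannot be told apart. No run of 50 bases from the last 500 bases of any member's transcripts, where 3′ reads fall, occurred in another member's transcripts, so reads of 1 member are not expected to be split with another.

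Upstream sequences are shown for 5 members. Gimap4, Gimap8 and Gimap9 were called lower in the KO endothelial sums. Gimap5 and Gimap6 were not called there, Gimap5 standing higher in KO and Gimap6 slightly lower. Gimap1, also lower there and not called, is not shown. Each sequence is the 250 bases before the RefSeq transcription start, 5′ to 3′ on the gene's own strand (GRCm38.p6). Capitals mark AGGAAG or its reverse complement CTTCCT, a core sequence bound by ETS-family factors, which are widely active in endothelium and lymphocytes. Gimap8 has 2 RefSeq start windows, and the second is shown, the first holding no such letters.
Gimap4: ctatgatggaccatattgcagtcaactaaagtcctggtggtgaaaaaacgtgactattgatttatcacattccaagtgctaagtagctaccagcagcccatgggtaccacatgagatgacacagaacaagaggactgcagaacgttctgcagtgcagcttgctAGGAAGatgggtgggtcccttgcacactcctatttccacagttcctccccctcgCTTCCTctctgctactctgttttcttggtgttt
Gimap8: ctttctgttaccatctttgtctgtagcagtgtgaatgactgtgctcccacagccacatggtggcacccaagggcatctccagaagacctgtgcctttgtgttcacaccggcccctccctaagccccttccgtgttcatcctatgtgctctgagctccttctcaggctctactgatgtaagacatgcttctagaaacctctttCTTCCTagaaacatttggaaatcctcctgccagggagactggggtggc
Gimap9: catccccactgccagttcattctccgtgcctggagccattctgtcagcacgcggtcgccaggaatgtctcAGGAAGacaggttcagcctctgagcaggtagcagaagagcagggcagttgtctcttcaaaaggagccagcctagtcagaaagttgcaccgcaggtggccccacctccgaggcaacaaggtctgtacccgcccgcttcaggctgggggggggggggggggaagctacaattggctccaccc
Gimap5: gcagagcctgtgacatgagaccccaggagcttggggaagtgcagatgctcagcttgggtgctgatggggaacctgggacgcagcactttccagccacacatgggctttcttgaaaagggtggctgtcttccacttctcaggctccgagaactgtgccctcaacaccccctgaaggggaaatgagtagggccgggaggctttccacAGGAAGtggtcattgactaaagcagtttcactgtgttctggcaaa
Gimap6: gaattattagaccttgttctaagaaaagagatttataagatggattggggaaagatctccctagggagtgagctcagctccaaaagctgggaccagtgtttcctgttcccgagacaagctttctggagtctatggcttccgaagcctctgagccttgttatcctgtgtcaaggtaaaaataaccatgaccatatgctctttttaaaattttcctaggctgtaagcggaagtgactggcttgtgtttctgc
These windows lie at chr6:48684328-48684577 (Gimap4, plus strand), chr6:48647111-48647360 (Gimap8, plus), chr6:48675885-48676134 (Gimap9, plus), chr6:48745947-48746196 (Gimap5, plus) and chr6:48708245-48708494 (Gimap6, minus). Counted over full windows of 300 bases (the 250 shown plus the first 50 transcribed), the ETS letters occurred in 7 of 9 member windows and in 35.4% of all 32851 RefSeq windows. These windows belonged to 7 of the 8 members, Gimap6 being the exception. Other forms of an ETS core were not searched, so Gimap6 is not shown to lack one. A RUNX core, searched as TGTGGT, occurred in windows of 3 members (Gimap1, Gimap4 and Gimap7) and in 16.8% of all windows. The core of GATA factors was searched as AGATAA and occurred in 0 member windows and in 11.2% of all windows. Both strands were searched, none of the motifs holds another, and a match is a description of letters, not of a bound site.

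Across the lung, the levels of GIMAP RNA were highest in endothelial and lymphoid classes. Endothelial cells held 42.6% to 61.3% of a library's family UMIs. Cells were grouped by clustering without the Gimap genes and named from fixed markers, with "-like" marking such a name. Further rules on leading genes, some added after the clusters were seen, left some clusters unnamed. The level of a class is its UMIs of a gene divided by all UMIs of that class in the library, in CPM without further scaling, averaged over libraries with at least 20 of its cells. The 3′ UMI counts do not scale with transcript length, so levels are compared between classes for each gene and not between genes.

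The summed level of the 8 members was 1064 ± 77 CPM (SD, n = 2) in aerocyte-like cells, the capillary cells specialised for gas exchange, and 860 ± 99 CPM (n = 5) in general capillary-like cells. It was 761 ± 119 CPM (n = 5) in cycling endothelial cells, 476 ± 30 CPM (n = 3) in venous-like cells, 403 ± 42 CPM (n = 3) in lymphatic-like cells and 351 ± 56 CPM (n = 5) in arterial-like cells. The aerocyte-like mean came from the Het libraries alone (85 and 54 cells), because the KO libraries held only 2, 2 and 3 such cells. Within Het1 and Het2, aerocyte-like cells were at 1010 and 1119 CPM and general capillary-like cells at 995 and 924 CPM. Capillary classes thus stood above venous-like, lymphatic-like and arterial-like cells without overlap between libraries, and general capillary-like and cycling cells overlapped each other, as did lymphatic-like and arterial-like cells.

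Among immune cells the summed level was 685 ± 196 CPM (n = 4) in T or innate lymphoid-like cells and 522 ± 128 CPM (n = 2) in B-like cells. The range of the T or innate lymphoid-like cells overlapped those of B-like cells and cycling endothelium. Basophil or mast-like cells held 105 ± 32 CPM (n = 4) and macrophage-like cells 69.8 ± 20.5 CPM (n = 5). Neutrophil-like, dendritic-like, monocyte-like and alveolar macrophage-like cells stood between 3.00 and 15.2 CPM, and mesenchymal cells at 7.66 CPM. High family RNA among immune cells was therefore measured in lymphoid classes.

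**Figure D1:**
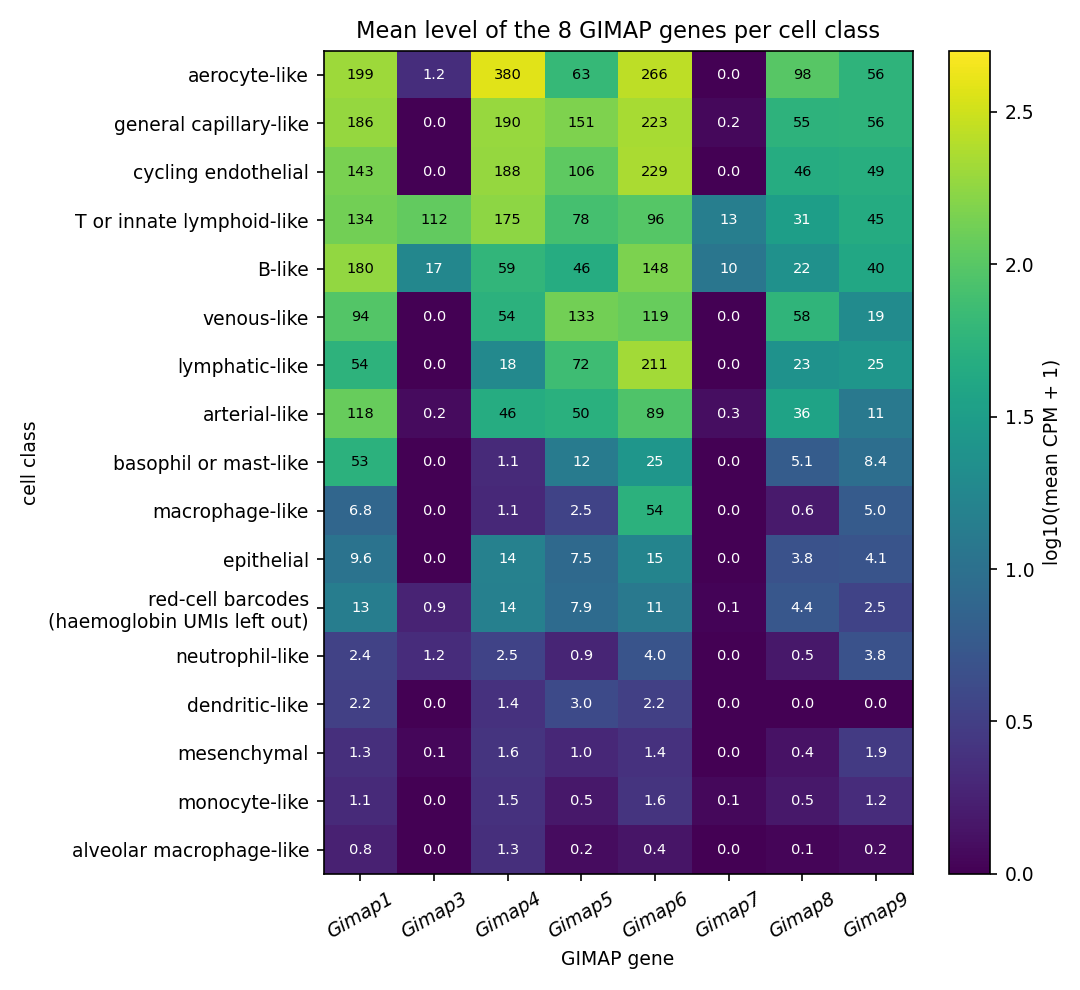
Heat map of the mean level of each of the 8 members (columns) in 17 cell classes (rows), in CPM on a log10 colour scale. Each value is the mean over libraries with at least 20 cells of the class. Endothelial and lymphoid rows hold the high values, and Gimap6 is the member with a macrophage level above 50 CPM. Gimap3 and Gimap7 have their highest values in the T or innate lymphoid-like and B-like rows. The B-like Gimap7 value rests on 8 UMIs of Het1 (20.8 CPM), with 0 in Het2.

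Background was read from barcodes of red cells, which do not make these RNAs. Once haemoglobin UMIs were set aside, the family made 71.6 and 73.2 CPM of the rest in the Het libraries and 43.0, 39.8 and 42.9 CPM in the KO libraries. Barcodes without a GIMAP-expressing cell thus carried family UMIs, more of them in both Het libraries than in any KO library. The small levels of monocyte-like, neutrophil-like and mesenchymal cells lay below these red-cell values and are not read as expression. The family sum of macrophage-like cells was 60.3 and 64.7 CPM in Het and 45.7, 78.5 and 99.9 CPM in KO. It lay below the red-cell values in both Het libraries and near them in KO1. The sum alone thus does not set these cells apart from that background. Haemoglobin was left out of the red-cell totals only, so the scales differ. In every library the sum lay above that of monocyte-like cells, which was 5.08 to 8.31 CPM. Gimap6 in macrophage-like cells, at 36.4 to 79.6 CPM, lay above its 6.82 to 15.5 CPM in red-cell barcodes.

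Each member had its own place within this pattern. Gimap4 was highest in aerocyte-like cells, at 366 and 394 CPM in the 2 Het libraries. It averaged 190 ± 40 CPM (n = 5) in general capillary-like cells, 45.6 ± 8.4 CPM (n = 5) in arterial-like cells and 17.7 ± 5.7 CPM (n = 3) in lymphatic-like cells, and 175 ± 45 CPM (n = 4) in T or innate lymphoid-like cells. Gimap4 RNA was therefore lower in arterial-like and lymphatic-like than in capillary endothelium, with no overlap between the libraries of these classes.

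Gimap6, the member linked to autophagy through GABARAPL2, was spread more evenly. It averaged 266 ± 15 CPM (n = 2) in aerocyte-like, 223 ± 21 CPM (n = 5) in general capillary-like and 211 ± 39 CPM (n = 3) in lymphatic-like cells. The last of these ranges overlapped that of general capillary-like cells, and arterial-like cells were lower at 89.4 ± 18.9 CPM (n = 5). In Het1 and Het2 alone, Gimap6 was at 277 and 255 CPM in aerocyte-like and at 252 and 228 CPM in general capillary-like cells. In macrophage-like cells it averaged 53.9 ± 16.8 CPM (n = 5) and supplied 644 of the 830 family UMIs counted there. Gimap6 thus supplied most of the family UMIs of macrophage-like cells, and Gimap4 in the same cells was at 1.05 ± 0.45 CPM.

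Gimap5, a membrane-anchored survival factor of lymphocytes, averaged 151 ± 24 CPM (n = 5) in general capillary-like and 133 ± 25 CPM (n = 3) in venous-like cells. In aerocyte-like cells it was at 54.4 and 71.9 CPM, and in arterial-like cells at 50.4 ± 15.9 CPM (n = 5). Its order across capillary classes was the reverse of that of Gimap4: each library's general capillary value, 111 CPM or more, lay above both aerocyte values.

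Gimap1, required by mature B and T lymphocytes, averaged 199 ± 16 CPM (n = 2) in aerocyte-like, 186 ± 35 CPM (n = 5) in general capillary-like and 118 ± 10 CPM (n = 5) in arterial-like cells. Within the Het libraries, the only ones behind the aerocyte mean, general capillary-like cells were at 232 and 213 CPM and aerocyte-like cells at 188 and 211 CPM. Gimap1 averaged 180 ± 11 CPM (n = 2) in B-like cells and 134 ± 36 CPM (n = 4) in T or innate lymphoid-like cells. In basophil or mast-like cells it reached 53.2 ± 16.8 CPM (n = 4), 61 of the 119 family UMIs there. Gimap1os, on the opposite strand of Gimap1, had at most 5.92 scaled CPM in any library's endothelial sum, and whether counting used the strand is not given in the sources used here.

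Gimap8, which carries repeated GTP-binding domains, averaged 98.1 ± 29.6 CPM (n = 2) in aerocyte-like, 57.9 ± 18.8 CPM (n = 3) in venous-like and 54.9 ± 10.6 CPM (n = 5) in general capillary-like cells. In Het1 and Het2 alone, Gimap8 was at 77.15 and 119.06 CPM in aerocyte-like and at 70.55 and 59.83 CPM in general capillary-like cells. Gimap9 averaged 56.1 ± 11.3 CPM (n = 5) in general capillary-like, 55.9 ± 12.1 CPM (n = 2) in aerocyte-like and 11.4 ± 5.6 CPM (n = 5) in arterial-like cells. In the Het libraries alone Gimap9 was at 59.2 and 73.1 CPM in general capillary-like and at 47.3 and 64.5 CPM in aerocyte-like cells. Among lymphoid classes Gimap9 stood at 45.0 ± 8.4 CPM (n = 4) in T or innate lymphoid-like and 40.2 ± 2.0 CPM (n = 2) in B-like cells. Both members were present in capillary and lymphoid cells alike, with lower values in arterial-like cells for Gimap9.

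Gimap3 and Gimap7 were the exceptions, as lymphoid genes nearly absent from endothelium. Gimap3, the close relative of Gimap5, averaged 112 ± 38 CPM (n = 4) in T or innate lymphoid-like cells and 16.9 ± 5.6 CPM (n = 2) in B-like cells. In the endothelial sums it had 3 UMIs among 19626965, and in general capillary-like cells 0 among 4778747, which allows up to 0.628 CPM by counting error alone. Gimap7 had 38 UMIs in all kept cells, averaging 13.2 ± 7.9 CPM (n = 4) in T or innate lymphoid-like cells, with 2 UMIs in the endothelial sums.

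Counted the other way, 89.1% of all Gimap3 UMIs and 81.6% of all Gimap7 UMIs came from T, innate lymphoid or B-like cells, which were few. For the other 6 members that share was 3.86% to 7.36%, while endothelial cells supplied 45.4% to 57.7%. Across 15 classes, mean log2(CPM + 1) of Gimap3 and Gimap7 followed each other with r = 0.993, and either had r of 0.188 to 0.44 with the other 6. Among those 6, r ran from 0.817 to 0.986, the highest for Gimap5 and Gimap8. These r values share the libraries, the depth of each class and the many classes near 0, and are a description.

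Per cell, the family was found in nearly every general capillary-like cell. With each cell thinned to 3000 UMIs, at least 1 member was detected in 96.4% and 94.7% of these cells in Het and in 94.6%, 91.2% and 94.0% in KO, from 75 to 113 cells per library. Without thinning the shares were 96.0% to 99.1% at medians of 6508 to 9532 UMIs per cell. Monocyte-like cells, which should largely lack the family, gave 1.11% to 3.68% thinned and 4.02% to 6.99% unthinned at medians of 8119 to 9377 UMIs. The mean number of different members detected per thinned general capillary-like cell was 2.41 and 2.19 in Het and 1.87, 1.85 and 1.97 in KO. No such count was made for other genes, so nothing is read from this difference. In scaled CPM, 18.2% of all genes tested in these cells were lower in KO without overlap. The groups also filled the clusters of this class unequally, as given below. The cells too shallow for thinning numbered 1 and 4 in Het and 7, 1 and 3 in KO.

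**Figure D2:**
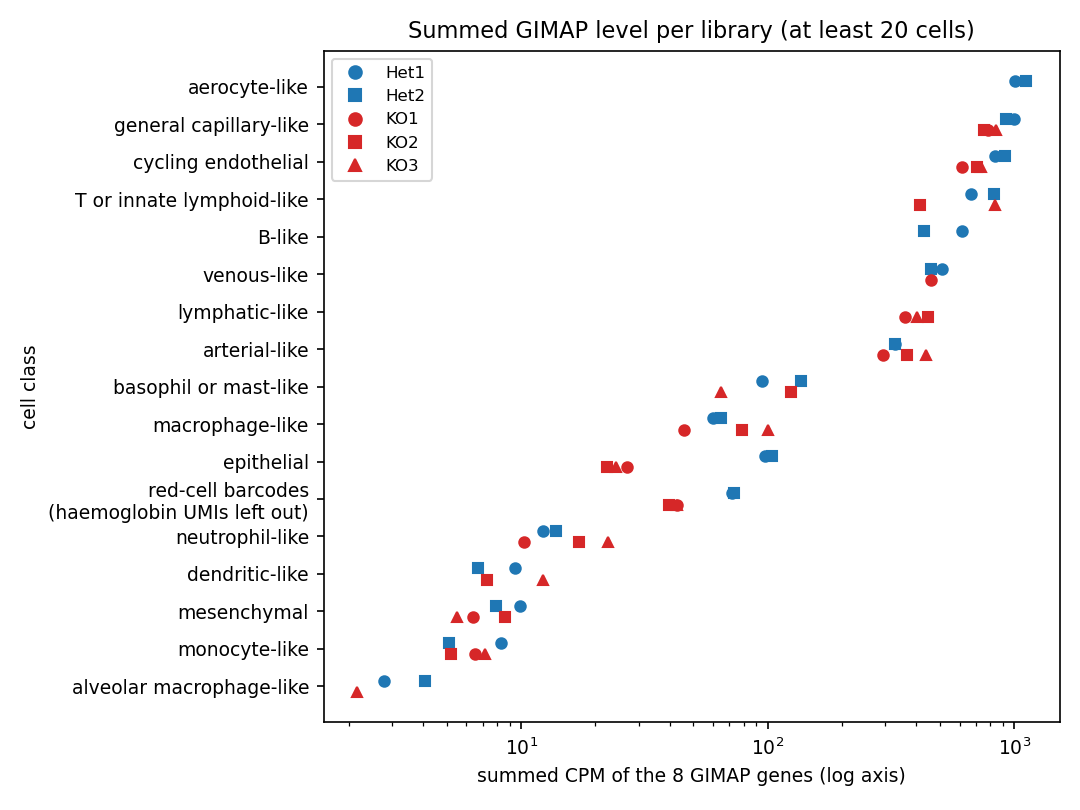
Summed level of the 8 members in each library (points, Het and KO in separate colours) for each cell class with at least 20 cells in that library, in CPM on a log axis. Endothelial and lymphoid classes lie above the myeloid and mesenchymal classes, and the epithelial points split, with the Het libraries at 97.3 and 103.8 CPM and the KO libraries at 22.3 to 26.8 CPM.

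Epithelial cells showed family UMIs in a pattern that followed mixed cells. Their summed level was 97.3 and 103.8 CPM in Het and 26.8, 22.3 and 24.3 CPM in KO. These UMIs made 30.2% and 31.8% of all family UMIs of the Het libraries and 6.53% to 7.99% of those of the KO libraries. Between 92.1% and 99.3% of them lay in epithelial cells that also held at least 3 markers of another lineage. In those mixed cells the 8 endothelial lineage markers summed to 1692 and 1818 CPM in Het and 513, 310 and 413 CPM in KO. Epithelial cells that were not mixed had 2.44 to 4.55 CPM of the family in Het and 1.99 to 4.03 CPM in KO, with the groups overlapping. The epithelial family values therefore moved with endothelial marker UMIs in the same cells.

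In the sums of all endothelial cells, KO libraries held less Gimap4, Gimap8 and Gimap9 RNA, less clearly less Gimap1 and Gimap6, and somewhat more Gimap5. For this comparison UMIs of each gene were summed per library (280 to 421 endothelial cells each), scaled with TMM factors to CPM and fitted with edgeR's quasi-likelihood test over 11567 genes, calling a gene at a Benjamini-Hochberg adjusted p under 0.05. In bulk sums of this kind, fewer cells of a type and less RNA per cell cannot be told apart. Because the members were chosen with these contrasts known, their calls are a description.

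Gimap4 stood at 185 and 191 scaled CPM in the 2 Het libraries and at 94.3, 124 and 92.5 in KO1, KO2 and KO3. All KO values were below both Het values, and the log2 fold change, KO against Het, was −0.86 (SE 0.13). Gimap8 stood at 56.1 and 64.2 in Het and at 36.8, 36.3 and 38.8 in KO, a log2 fold change of −0.68 (SE 0.11). Gimap9 stood at 44.9 and 53.1 in Het and at 29.0, 34.5 and 33.2 in KO, with −0.60 (SE 0.13). These 3 neighbours, which occupy the first 3 positions of the cluster, were the members called lower.

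Gimap1 stood at 155 and 157 scaled CPM in Het and at 109, 148 and 119 in KO, a log2 fold change of −0.31 (SE 0.13). Gimap6 stood at 206 and 204 in Het and at 169, 191 and 187 in KO, with −0.17 (SE 0.09). Both had every KO library under both Het libraries and were not called. Gimap5 went the other way, from 102 and 93.9 in Het to 107, 115 and 116 in KO, with +0.21 (SE 0.09), again without overlap and not called. Gimap3 and Gimap7 did not pass the filter on low counts.

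Of the 6 members tested, 3 were called lower, and 4.29% of all genes tested were; 0 were called higher, against 1.70% of all genes. Values without overlap, lower in KO, were found for 5 of the 6 and for 20.8% of all genes. The median log2 fold change was −0.45 over the 6 members and 0.00 over all genes. Since the rule used this contrast, nothing is read from these shares. With Het1 or Het2 left out, which leaves 1 Het library assumed to vary like the KO libraries, 0 members were called in this fit and in each of the 3 other fits below.

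**Figure D3:**
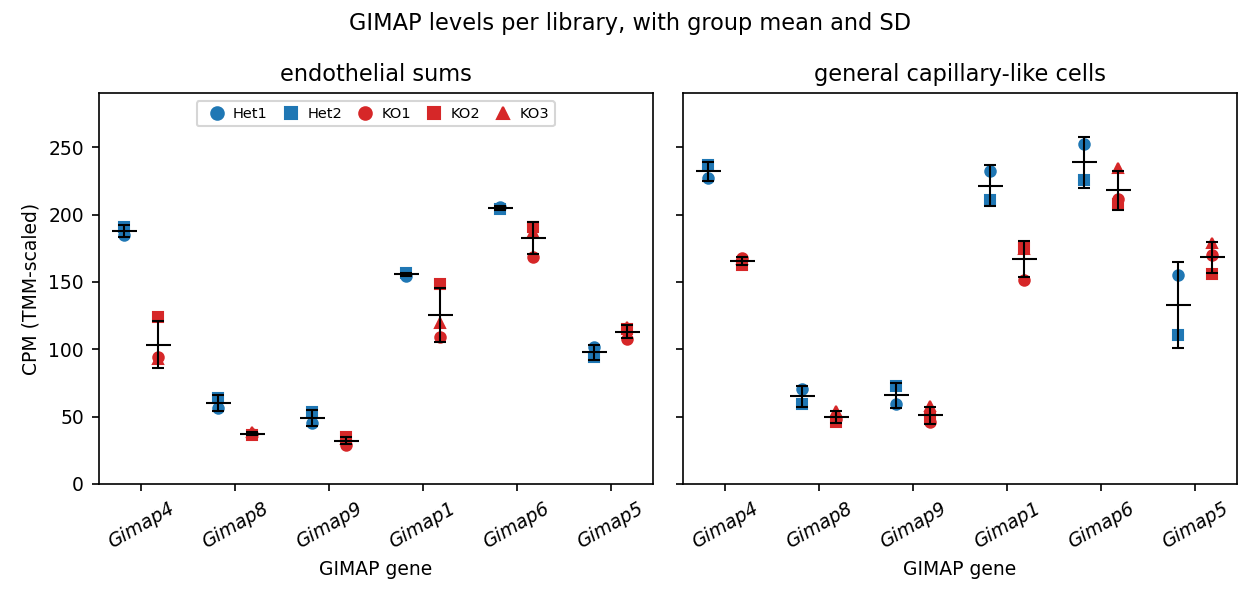
TMM-scaled CPM of 6 members in each library, for the endothelial sums and for general capillary-like cells, with points for libraries and bars for the group mean ± SD (n = 2 Het, n = 3 KO). Gimap1, Gimap4, Gimap8 and Gimap9 are lower in every KO library in both panels of cells, and Gimap5 has a higher KO mean in both. Gimap6 is lower in every KO library in the endothelial sums alone.

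The mix of endothelial cells differed between the groups. Aerocyte-like cells, which held the highest Gimap4 level, numbered 85 and 54 in Het and 2, 2 and 3 in KO. The 8 aerocyte markers summed to 1562 and 1692 CPM in the Het endothelial sums and to 938, 706 and 830 CPM in KO. The 8 endothelial lineage markers summed to 8270 and 8570 CPM in Het and to 5981, 5939 and 6223 CPM in KO, none of them at 0. With aerocyte-like and cycling cells left out, Gimap4 had a log2 fold change of −0.58 and 0 of the 6 members were called, while 165 of 10969 genes still were. With sex as a covariate, Gimap4 alone of the 3 was still called, at −1.02.

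General capillary-like cells are a class present in every library (79 to 114 cells), so the members can be set side by side there. Gimap4 stood at 227 and 237 scaled CPM in Het and at 168, 163 and 167 in KO, a log2 fold change of −0.48 (SE 0.12). Gimap1 stood at 232 and 211 in Het and at 151, 175 and 174 in KO, with −0.41 (SE 0.13). The KO values of both genes lay below the Het values, and Gimap4 was called.

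Gimap8 stood at 70.7 and 59.3 in Het and at 48.2, 46.2 and 54.5 in KO, with −0.40 (SE 0.20). Gimap9 stood at 59.3 and 72.5 in Het and at 46.0, 48.6 and 58.1 in KO, with −0.35 (SE 0.20). Neither was called, although no KO value reached a Het value. Gimap6 overlapped between groups, from 226 to 252 in Het and from 208 to 234 in KO. Gimap5 stood at 155 and 110 in Het and at 170, 156 and 179 in KO, with +0.32 (SE 0.16) and not called.

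Of these 6 members, 1 was called lower (3.10% of the 8262 genes tested) and 0 higher (2.72%), and 4 were lower without overlap (18.2% of genes). The Gimap4 call was lost under DESeq2, with sex as a covariate, without KO2 or KO3 (0 members called), and under 4 other ways of drawing the class. Its log2 fold change was −0.19 under a stricter cell filter (1000 genes or more, mitochondrial share of 10% or less), −0.20 and −0.83 at Leiden resolutions 0.5 and 2, and −0.21 with Gimap genes among the variable genes. The 8 endothelial lineage markers summed to 8897 and 9079 CPM in these Het cells and to 6687, 6275 and 7219 CPM in KO, and their part in the member values was not tested.

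The class was made of 2 clusters that the groups filled unequally. The first, led by Rgs2, Depp1, Kit and Cd36, held 93 and 65 cells in Het and 24, 24 and 39 in KO, with Gimap4 at 240 and 249 unscaled CPM in Het and 265, 211 and 225 CPM in KO. The second, led by Fabp4 and Samsn1, held 20 and 14 cells in Het and 76, 90 and 64 in KO, with Gimap4 at 189 and 212 CPM in Het and 140, 142 and 132 CPM in KO. Gimap4 therefore overlapped between groups in the first cluster and did not in the second. Gimap5 ran from 99.8 to 116 CPM in Het and 136 to 146 CPM in KO in the first cluster, and overlapped in the second.

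Other endothelial classes gave further values. In cycling endothelial cells (37 to 48 per library) Gimap4 stood at 240 and 247 CPM in Het and at 133, 165 and 156 CPM in KO, without overlap. In arterial-like cells (25 to 55 per library) Gimap4 stood at 45.5 and 44.2 CPM in Het and at 34.8, 45.4 and 58.2 CPM in KO, which overlap. In venous-like cells (13 to 25 per library) it stood at 65.2 and 67.9 CPM in Het and at 28.6, 55.4 and 42.3 CPM in KO. The lower Gimap4 values of KO were thus seen in cycling, venous-like and the second capillary cluster, and not in arterial-like cells. Whether the classes differ in this was not tested.

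In the immune sums, Gimap4 was lower in KO. Gimap4 stood at 5.00 and 4.80 scaled CPM in Het and at 1.86, 2.27 and 3.08 in KO, a log2 fold change of −0.98 (SE 0.21), and was called. Gimap6 stood at 7.64 and 5.92 in Het and at 8.94, 10.2 and 12.5 in KO, with +0.65 (SE 0.17), was not called, and turned to −0.74 under the stricter cell filter described above. Gimap8 stood at 1.34 and 1.05 in Het and at 0.57, 0.43 and 0.90 in KO, with −0.87 (SE 0.36). All 3 separated the groups without overlap, at low levels. The share of all genes that did so was not counted for the immune sums, so nothing is read from this. In red-cell barcodes, haemoglobin set aside, Gimap4 stood at 20.4 and 23.8 CPM in Het and at 7.0, 10.8 and 8.82 CPM in KO, so the background moved the same way, and its part in the immune value was not tested.

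Gimap3, Gimap1, Gimap5 and Gimap9 overlapped between groups, with log2 fold changes of −0.70, −0.43, −0.33 and −0.14. Of the 7 members tested, 1 was called lower (4.04% of the 13886 genes tested) and 0 higher (3.00%). Gimap7 did not pass the filter. Without KO2, as without either Het library, 0 members were called, and with sex as a covariate 0 were too.

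These sums blend cells rich and poor in the family, and their make-up differed. B-like cells numbered 62 and 29 in Het and 6, 6 and 8 in KO, T or innate lymphoid-like cells 43 and 44 against 9, 25 and 35, and macrophage-like cells 122 and 107 against 225, 225 and 258. The 8 B markers summed to 165 and 90.0 CPM in Het and to 65.1, 65.4 and 66.7 CPM in KO, and 6 of the 8 fell, with a median log2 fold change of −2.12. The 18 T and innate lymphoid markers summed to 200 and 172 CPM in Het and to 91.7, 99.0 and 176 CPM in KO, where Cd3e and Prf1 were at 0 in KO1. With the lymphoid-like cells left out, Gimap4 was at −0.71 and no longer called, while Gimap6 was at +1.34 and was the 1 member called. With mixed cells left out the same exchange occurred, Gimap4 at −0.62 and Gimap6 at +0.84.

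Within lymphoid classes the values were few and wide. Gimap4 in T or innate lymphoid-like cells stood at 173 and 235 CPM in Het and at 138, 125 and 166 CPM in KO, where KO1 had only 9 cells. Gimap3 in these cells stood at 107 and 147 CPM in Het and at 97.4, 60.4 and 133 CPM in KO, which overlap. In B-like cells the summed family stood at 612 and 431 CPM in Het and at 1133, 751 and 711 CPM in KO, the KO values from 6 to 8 cells each. The lymphoid-like cells of KO thus still held family RNA, at 415 to 1133 CPM per class and library.

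In macrophage-like cells Gimap6 stood at 43.8 and 52.3 scaled CPM in Het and at 36.8, 59.0 and 78.1 in KO, which overlap, with a log2 fold change of +0.29 (SE 0.26). The 4 members that passed the filter there (Gimap1, Gimap5, Gimap6 and Gimap9) all overlapped between groups. The higher Gimap6 value of the KO immune sums was therefore not matched by a separation of the groups within this class, whose cells were more numerous in KO. No member passed the low-count filter in monocyte-like, neutrophil-like or cycling immune cells.

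Over whole libraries Gimap4 stood at 24.3 and 24.0 scaled CPM in Het and at 14.3, 14.0 and 12.1 in KO, a log2 fold change of −0.85 (SE 0.09). Gimap8 stood at 6.81 and 6.91 in Het and at 4.73, 4.02 and 4.55 in KO, with −0.63 (SE 0.11). Both were called, and Gimap6, at 24.8 to 27.7 in Het and 25.3 to 26.1 in KO, overlapped between groups. Of 7 members tested, 2 were called lower (3.06% of 17722 genes) and 0 higher (1.16%). Without KO2 or KO3, only Gimap4 was called. With mixed cells left out, an alternative chosen after seeing the data, Gimap4 had −0.55 and 0 members were called.

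**Figure D4:**
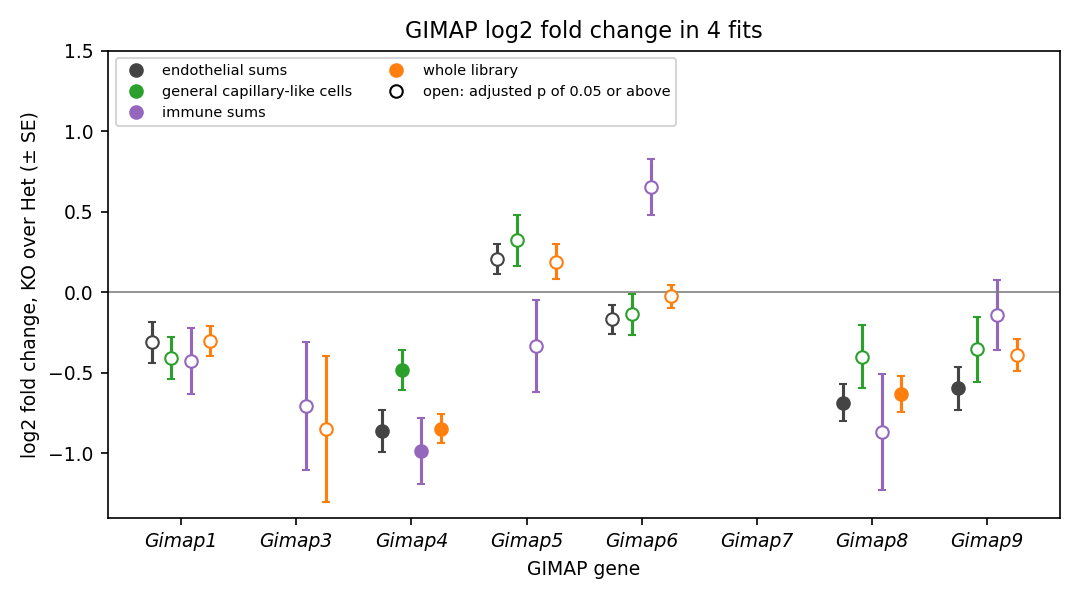
Log2 fold change, KO against Het, of each member that passed the low-count filter, with its standard error, in the endothelial, general capillary-like, immune and whole-library fits, filled points marking an adjusted p under 0.05. Gimap4 lies below 0 in all 4 fits (−0.86, −0.48, −0.98 and −0.85), Gimap5 lies above 0 in all but the immune fit, and Gimap6 lies above 0 in the immune fit alone.

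Genes that work with GIMAP proteins or in lymphocyte survival (Bcl2, Bcl2l1, Mcl1, Bax, Bak1, Bcl2l11, Gabarap, Gabarapl1, Gabarapl2, Map1lc3b and Gsk3b) were read from the same fits. In the endothelial sums 0 of these 11 passed the edgeR test, 0 passed DESeq2 and 4 had an unadjusted p under 0.05, with a median log2 fold change of −0.07. Among immune cells 0 of 11 passed either tool and 2 had an unadjusted p under 0.05, with a median of −0.06. In general capillary-like cells Bcl2l1, which encodes the survival protein BCL-XL, fell with a log2 fold change of −0.91 (SE 0.22, edgeR adjusted p = 0.019), and 0 of the list passed DESeq2. Gabarapl2, the partner of GIMAP6, was among those that did not pass.

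Of 18 other immune GTPases, 12 were tested in the endothelial sums, and 1 of them, Gbp9, an interferon-induced guanylate-binding protein, fell with a log2 fold change of −1.21 (SE 0.27, edgeR adjusted p = 0.0344). All 12 had negative fold changes and their median was −0.86, but only Gbp9 and Gbp4 had every KO library below both Het libraries. The other tested genes overlapped between groups. Iigp1, for example, stood at 181 and 81.4 scaled CPM in Het and at 177, 17.0 and 21.3 in KO1, KO2 and KO3. For the immune sums 14 were tested and 2 rose: Gbp5 by 1.22 (SE 0.19, edgeR adjusted p = 0.00897) and Gbp7 by 0.76 (SE 0.12, edgeR adjusted p = 0.0094) on the log2 scale, with a median of 0.13 over the list.

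Some general endothelial genes were called lower in KO endothelium as well. Of 14 pan-endothelial genes, 6 fell: Cldn5 (−0.78), Emcn (−0.66), Ramp2 (−0.49), Esam (−0.38), Pecam1 (−0.37) and Cdh5 (−0.35), by edgeR adjusted p of 0.000834 to 0.0394. Of all genes tested, 4.29% were called lower. The list's median log2 fold change was −0.31, and 12 of the 14 were negative. Fli1 (0.24, every KO library above both Het libraries) and Tek (0.16, overlapping) went the other way and were not called. The fold changes of Cldn5, a tight-junction gene, and Emcn, a surface sialomucin gene, lay between those of Gimap4 and Gimap9 in the same sums. In the immune sums Cldn5 (−1.31) and Ramp2 (−0.81) of this list also fell and Fli1 rose (0.21), with the endothelial lineage markers summing to 66.2 and 44.1 CPM in Het and 39.5, 31.1 and 40.6 CPM in KO.

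Genes next to the cluster were read from the 6 nearest protein-coding genes on each side, of which 5 were tested in the endothelial sums. Tmem176a and Tmem176b, a pair of membrane proteins encoded beyond Gimap3 (48833818 to 48841496 for Tmem176b and 48840919 to 48847071 for Tmem176a), were the neighbours that passed. Tmem176a stood at 256 and 247 scaled CPM in Het and 141, 175 and 169 in KO, a log2 fold change of −0.64 (SE 0.11, edgeR adjusted p = 0.00957). Tmem176b fell by 0.46 (SE 0.11, edgeR adjusted p = 0.0464). Among immune cells both rose, Tmem176a by 0.95 (SE 0.16, edgeR adjusted p = 0.0134) and Tmem176b by 1.01 (SE 0.12, edgeR adjusted p = 0.00383). In general capillary-like cells neither passed.

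The genes whose levels across the same 15 classes, without aerocyte-like and B-like cells, were most like the summed family were S1pr1 (0.962), Ctla2a (0.941), Tecpr1 (0.917), Ets1 (0.910) and Kif2a (0.896). The measure was Pearson r of mean log2(CPM + 1). S1pr1 encodes a sphingosine-1-phosphate receptor of endothelium and lymphocytes, and Ets1 an ETS transcription factor of both. S1pr1 ranged from 337.8 CPM in venous-like and 241 CPM in general capillary-like cells to 0.67 CPM in alveolar macrophage-like cells. Of single members, Gimap6 was most like S1pr1 (0.964), Gimap3 most like the natural killer receptor gene Klra5 (0.999) and Gimap7 most like Klrc2 (0.997). The values for Gimap3 and Gimap7 rest mainly on T or innate lymphoid-like cells, the only lymphoid class among the 15. The closest gene to each of the other members was a member: Gimap5 to Gimap1 (0.967) and to Gimap8 (0.986), Gimap8 to Gimap4 (0.929) and to Gimap5, and Gimap6 to Gimap9 (0.937).

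In the endothelial sums S1pr1 stood at 328 and 318 scaled CPM in Het and 229, 201 and 208 in KO, a log2 fold change of −0.60 (SE 0.09, edgeR adjusted p = 0.00605). Ets1 stood at 467 and 488 in Het and 291, 321 and 297 in KO, with −0.66 (SE 0.09, edgeR adjusted p = 0.00314). Tecpr1, a gene of autophagosome maturation, fell by 0.66 (SE 0.11, edgeR adjusted p = 0.00954), while Ctla2a and Kif2a did not pass. In general capillary-like cells Ets1 and Tecpr1 fell again, by 0.54 and 0.65 (edgeR adjusted p = 0.0129 and 0.0425). S1pr1 rose by 0.73 in the immune sums (SE 0.17, edgeR adjusted p = 0.0387).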

How the data were processed

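The deposited counts are UMIs per gene and cell barcode, 1 matrix per library, which the authors obtained from Cell Ranger 4.0.0 and build mm10 (per the submitters' processing notes). A barcode was used if it held 500 or more genes and if mitochondrial UMIs made up 15% or less, and 78 to 186 doublets per library were removed by their likeness to simulated doublets. Cells were clustered with scanpy 1.11.5 on 2000 variable genes (30 components, 15 neighbours, Leiden resolution 1) without Gimap, sex-linked, mitochondrial, haemoglobin and Zswim8 genes, and endothelial and immune cells were clustered again. A cluster could be named where at least 3 fixed markers were found in at least 20% of its cells with a log2 fold above 0.5. It stayed unnamed if another list held more of its leading genes, or if it was shallow and no marker led it. Rules added after clusters were seen merged the T and innate lymphoid names and left out clusters led by genes of another lineage. They also took the name from clusters led by pericyte genes, unless mesenchymal, or by DNA replication genes, unless cycling.

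UMIs summed per library and class were tested with edgeR 4.0.16 (R 4.3.3; TMM, filterByExpr, quasi-likelihood, two-sided, Benjamini-Hochberg over all genes tested), with DESeq2 1.42.0 among the alternatives. The scripts were tested on simulated data. Total UMIs per library ran from 56608582 to 93708304, and 3277 to 6079 family UMIs per library limit the precision of the members. The members and lists were chosen with earlier results of these data known. Named genes are all 8 members, list genes that passed, the locus neighbours and the genes most alike. Cluster names are rebuilt here and may differ from the study's own.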

Additional observations from a re-analysis of the deposited data

Results flagged for a closer look

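Gimap6 had KO values on opposite sides of the Het values in different cell types, with no overlap between libraries in unscaled CPM. It was called in neither the endothelial nor the immune fit under the main settings. In the immune fit it was called, as higher, with lymphoid-like or with mixed cells left out. Its sign turned in both fits under another setting (0.041 with doublets kept and −0.74 under the stricter cell filter), and the difference was not tested. The log2 ratio of mean unscaled CPM, KO over Het, was −0.183 in the endothelial sums and 0.701 in the immune sums. Within endothelium it was −0.184 in general capillary-like cells and −0.33 in cycling cells, against 0.359 in arterial-like cells, where Gimap6 stood at 77.7 and 75.1 CPM in Het and 79.2, 94.6 and 120 CPM in KO. In scaled CPM the general capillary-like groups overlapped.

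The genes Tmem176a and Tmem176b, neighbours of the cluster, and S1pr1, the gene most like the family, were called by edgeR in opposite directions in the endothelial and immune sums, again without overlap between groups and with the difference not tested. The log2 fold changes were −0.64 and 0.95 for Tmem176a, −0.46 and 1.01 for Tmem176b and −0.60 and 0.73 for S1pr1. In the immune sums, macrophage-like cells numbered 122 and 107 in Het and 225, 225 and 258 in KO. S1pr1 averaged 40.1 CPM in these cells and 3.06 CPM in monocyte-like cells. It averaged 64.3 CPM in T or innate lymphoid-like cells, which were fewer in KO. The part of this make-up in the immune values was not tested.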

How the results depend on the processing

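Gimap4 was lower in KO under every setting in which it was tested in the 4 fits, from −1.02 to −0.58 in the endothelial sums and from −0.83 to −0.19 in general capillary-like cells. Counts of members called depended on the settings, and for each change the cause was not tested. In the endothelial sums 3 were called, 1 with sex as a covariate and 0 with aerocyte-like and cycling cells left out (3 at an unadjusted p under 0.05), and 0 to 4 with 1 library left out. In the immune sums 1 was called, 2 under DESeq2 or with no filter, 0 with at least 10 CPM in 2 libraries (1 member tested) or with sex as a covariate, and 0 to 2 with 1 library left out. In whole libraries 2 were called, 1 with the 10 CPM filter or the stricter cell filter, 0 with sex as a covariate or with mixed cells left out, and 0 to 2 with 1 library left out. In general capillary-like cells 1 was called, 2 with library size alone, 0 under DESeq2, sex as a covariate, the stricter cell filter, Leiden resolution 0.5 or 2, or Gimap genes among the variable genes, and 0 to 1 with 1 library left out. Of the libraries, leaving out Het1 or Het2 took the count to 0 in every fit, leaving out KO2 did so in the immune and general capillary-like fits, and leaving out KO3 in the latter. The labels number libraries within each group and do not say whether equal numbers mark paired samples. Same-numbered deviations from the group mean correlated by −0.15 to 0.13. With 2 Het libraries these deviations mirror each other, so the 2 pairs cannot decide whether the samples were paired. With the number as a replicate block the endothelial count was 1, the immune count 2 and the whole-library count 0. The general capillary-like count was still 1. Some directions reversed, none in a fit in which that member was called under the main settings. Gimap6 was at 0.041 in the endothelial sums with doublets kept, at −0.74 in the immune sums with the stricter cell filter, at 0.0057 in whole libraries with library size alone, from −0.10 to 0.058 there with 1 library left out and at 0.19 with mixed cells left out, and at 0.19 in general capillary-like cells at Leiden resolution 2. Without lymphoid-like cells, immune Gimap1 was at 0.25, Gimap5 at 0.65 and Gimap9 at 0.074. With sex as a covariate Gimap5 was at 0.11 and Gimap9 at 0.030 there, and Gimap9 was at −0.34 to 0.070 with 1 library left out and at 0.016 with mixed cells left out. In all, 326 alternative fold changes kept direction and side of the threshold, 47 lost the call, 11 gained one and 13 reversed. Depth limits Gimap3 and Gimap7 most, with 220 and 38 UMIs in all kept cells.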
